A study of Homo sapiens with 4 samples.

Results

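Interferon-stimulated genes are described here in THP1 cells, a human monoblastic acute myeloid leukemia line that carries the MLL-AF9 fusion gene. The set held 44 genes, chosen by name from known members of the response, out of 27193 gene names on the array, which covers every one of them. They were measured by 51 of the 34127 distinct probes, of which 4 (those of EPSTI1, HERC5, PARP12 and SP110) were printed 10 times per array, and 7 genes had 2 probes. The study asked what miR-511 does in these cells, and the data are 4 single-dye Agilent whole genome arrays. In each of 2 independent experiments 1 culture received the hsa-miR-511-5p mimic (miR-511 mimic) and 1 the negative Control #1 mimic (control mimic), each given once at 30 nM. Both were Ambion Pre-miR precursors, and RNA was taken on day 2 after culture in DMEM/Ham's F12 with low serum and albumin. All groups therefore shared the cell line, the fusion gene, the transfection and the medium, no untransfected culture was analysed here, and the model is a single line. The labels name no interferon treatment.

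Interferons are secreted by cells that sense infection, bind receptors on the same or neighbouring cells and activate JAK kinases there. The kinases phosphorylate STAT proteins such as STAT2, which joins IRF9 in a complex that enters the nucleus and binds the interferon-stimulated response element in target promoters. The induced proteins bind viral RNA, block entry and assembly of viruses, modify proteins with the ubiquitin-like ISG15 and feed back on the pathway. Transfected double-stranded RNA can be sensed by receptors that start the same response.

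The mature miRNA that was mimicked lies on chromosome 10 of GRCh38.p14 from 17845122 to 17845142 on the plus strand. It is shown because it is what the treated cultures received, with its seed (bases 2 to 8) in capitals. The sequence is that of RefSeq.
hsa-miR-511-5p: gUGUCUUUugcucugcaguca

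Promoters of the set were searched for the response element. The genes were chosen as known members of the response, so its share describes that choice and is not a result of these arrays. RefSeq windows of 300 bases (250 before and 50 after a gene's start, GRCh38.p14) were at hand for 36 of the 44 genes. The core of the interferon-stimulated response element, GAAANNGAAA read on both strands, was in at least 1 window of 27 of these 36 genes (75%). Counted by window, it was in 32 of the 50 windows of the set (64.0%) and in 3.57% of all 35116 windows of the table. Matches may overlap, and a match describes letters, not a bound site. The 60 bases around the match are given for 8 genes whose values are described at length, each on the strand of its gene with matches in capitals.
IFIT1, chr10:89392495-89392554, plus strand: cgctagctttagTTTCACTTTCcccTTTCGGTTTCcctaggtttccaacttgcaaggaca
IFIT3, chr10:89332453-89332512, plus strand: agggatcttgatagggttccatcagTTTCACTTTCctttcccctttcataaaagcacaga
MX1, chr21:41431829-41431888, plus strand: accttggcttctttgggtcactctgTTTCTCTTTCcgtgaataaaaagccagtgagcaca
RSAD2, chr2:6877607-6877666, plus strand: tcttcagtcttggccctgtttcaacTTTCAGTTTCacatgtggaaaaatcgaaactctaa
IFI44L, chr1:78620350-78620409, plus strand: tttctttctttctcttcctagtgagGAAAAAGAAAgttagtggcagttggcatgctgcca
ISG15, chr1:1013365-1013424, plus strand: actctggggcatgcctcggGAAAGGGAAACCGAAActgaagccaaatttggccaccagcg
IFI6, chr1:27672251-27672310, minus strand: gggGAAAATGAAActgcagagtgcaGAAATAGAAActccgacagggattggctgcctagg
HERC5, chr4:88457020-88457079, plus strand: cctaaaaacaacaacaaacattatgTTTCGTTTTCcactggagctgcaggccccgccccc
IFIT1, ISG15 and IFI6 held 2 matches each in the printed stretch, which overlap in ISG15.

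Values are log2 of the processed scanner intensity after quantile normalization (normalized log2 value), and differences between them are given as log2 fold change (log2FC). Values of different probes cannot be ranked against each other, so each gene was compared only with itself. Tests took in the probes measured on all 4 arrays whose signal was well above background on either both miR-511 or both control arrays, 22638 of 34127 probes. Per array, 22130 to 23647 probes were well above background, and no spot was saturated. Of 10 monocytic and myeloid marker genes on the array, among them CD14, CD33, MPO and SPI1, 10 passed the background limit on every array. The log2 of their summed signal was 16.24 on the miR-511 array of experiment 2 and between 16.37 and 16.42 on the others. Of 5 epithelial markers, EPCAM, CDH1, KRT19 and KRT5 were well above background on no array and CLDN4 on all 4. Also above on all 4 were 4 of 5 B cell, 4 of 5 erythroid, 2 of 5 T cell and 0 of 5 fibroblast markers. Passing the background limit alone thus does not tell cell types apart here. For a single gene with 2 arrays per group, the smallest p of an exact two-sided permutation test is 0.333. The moderated test of limma borrows its error estimate from all probes, and its p-values measure the spread between the arrays of 2 independent experiments. Passing the test means an unadjusted limma p below 0.05, the threshold of the study, and Benjamini-Hochberg adjusted values over all 22638 probes are given beside it.

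Most of the response was detectable in these cells. Of the 44 genes, 40 were well above background on every array at their brightest tested probe. IFI44 was so on 3 arrays and IFI44L on 2, and these 42 genes, with 48 probes, were tested. EPSTI1, an interferon-induced protein of epithelial-stromal contact, and GBP1, a guanylate-binding GTPase that coats intracellular bacteria, were well above background on no array. EPSTI1 had normalized log2 values of 3.49, 3.1, 2.16 and 2.64, and GBP1 had 1.35, 3.02, 1.35 and 1.41, in the order miR-511 and control mimic of experiment 1, then of experiment 2. Their values are too close to background to be read as levels. In RNA from whole cultures, fewer responding cells and less RNA per cell cannot be told apart.

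No interferon-stimulated gene passed the test between the miR-511 and the control mimic. In limma 0 of 42 genes and 0 of 48 probes had an unadjusted p below 0.05, where 498 probes of all 22638 (2.2%) had. A fit with the experiment as block gave 0 of 42 genes and 894 probes of all. The lowest unadjusted p of a member was 0.0895, that of IFI44L, and no probe on the array passed after Benjamini-Hochberg adjustment, with 0.790 as the smallest adjusted p. Log2FC (miR-511 minus control) lay between -1.25 and 0.26, with a median of -0.037 against 0.0098 over all tested probes. It was positive for 16 genes and negative for 26. The count of 0 depended on 1 array. Without miR-511 mimic replicate 1, the miR-511 array of experiment 2 set against both controls gave 5 genes at an unadjusted limma p below 0.05, all lower, where 2.78% of all probes passed and 1.77% did so lower. The lone array is assumed there to vary like the controls. These genes were IFIT1 (-0.59), IFIT3 (-0.54) and MX1 (-0.66), and IFI44 and IFI44L, whose signal on that array was not well above background and gives no size. The median of the 42 genes also hung on that array of experiment 2, since without it the median was 0.14. Without control mimic replicate 1 it was 0.030.

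The set did not keep 1 direction over the 2 experiments. In experiment 1 the median log2FC was 0.081 (0.030 over all probes), with 27 genes higher and 15 lower after miR-511 mimic. In experiment 2 it was -0.10 (-0.00055 over all probes), with 12 genes higher and 30 lower. Of the 42 genes, 16 were higher in experiment 1 and lower in experiment 2, whereas 1 took the opposite course, 11 were higher in both and 14 lower in both. Over all probes the 2 opposite courses were taken by 28.5% and 20.5%. Across the 42 genes the log2FC of the 2 experiments correlated with r = 0.26 and Spearman's rho = 0.082 (0.038 and 0.0028 over all probes). These correlations are across genes that share the 4 arrays, and genes are not replicates. IFI44 and IFI44L carry the first value, since r was 0.025 over the 40 genes well above background on all 4 arrays.

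**Figure D1:**
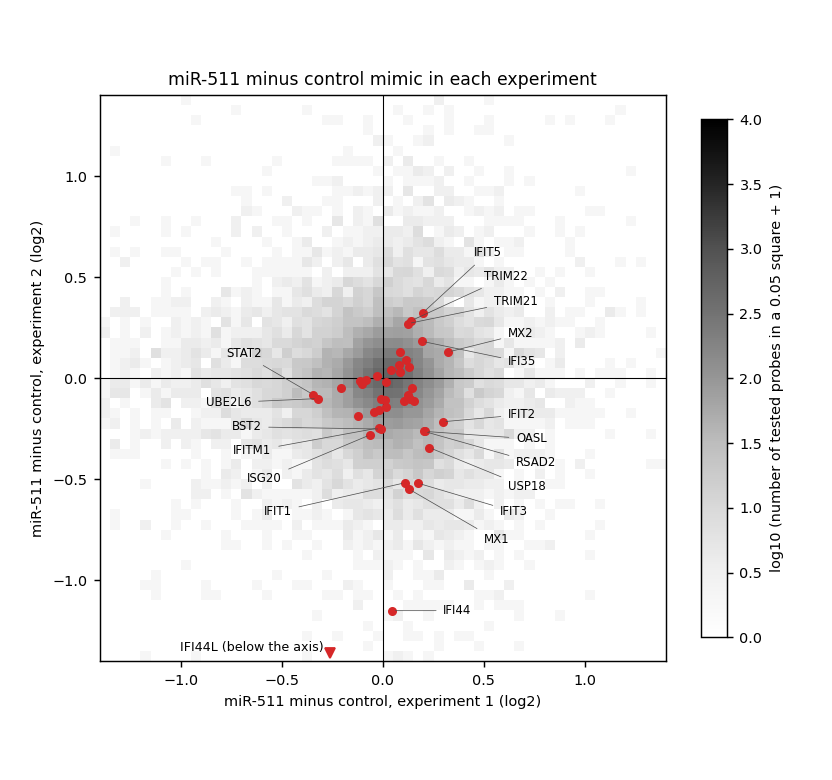
Log2FC between miR-511 and control mimic in experiment 1 (horizontal) and experiment 2 (vertical), with 1 red point per tested interferon-stimulated gene and the density of all 22638 tested probes in grey. IFIT1, IFIT3, MX1, USP18, OASL, RSAD2 and IFIT2 lie at the lower right, above 0 in experiment 1 and below 0 in experiment 2, and IFI44L lies below the axis at -2.24.

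IFIT1, IFIT2, IFIT3 and IFIT5 are related antiviral proteins, of which IFIT1 and IFIT5 bind viral RNA ends. The IFIT1 probe (chromosome 10 of hg19, 91163438 to 91163497) read 8.12 with miR-511 and 8.01 with control mimic in experiment 1, and 7.35 and 7.86 in experiment 2. IFIT3 (91099762 to 91099821), which stabilises IFIT1, read 8.20 and 8.02, then 7.45 and 7.97. For both genes 3 arrays lay within 0.26 of each other and the miR-511 array of experiment 2 lay more than 0.5 below all of them. IFIT2 (91068397 to 91068456) was likewise highest on the miR-511 array of experiment 1 and lowest on that of experiment 2, at 8.48 and 8.18, then 7.95 and 8.17. A second, dimmer IFIT2 probe was higher with miR-511 mimic in both experiments, by 0.044 and 0.11. IFIT5 (91179559 to 91179618) differed, at 6.19 and 6.0, then 5.80 and 5.48, so it was higher with miR-511 mimic in both experiments. Its log2FC of 0.26 (standard error 0.24, unadjusted p = 0.343 from limma) was the largest positive one among members well detected on every array and higher in both experiments. Its 2 groups overlapped across the experiments, while within them log2FC was 0.20 and 0.32. The fit had no block, so its standard error also takes in the difference between the experiments.

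MX1, a dynamin-like GTPase that traps viral nucleoproteins, read 9.40 and 9.27 in experiment 1 and 8.50 and 9.05 in experiment 2 (chromosome 21, 42831014 to 42831073). Again the miR-511 array of experiment 2 stood lowest, by 0.55. Its neighbour MX2 (42780501 to 42780560), which acts at the nuclear pore, read 11.19 and 10.86, then 10.95 and 10.82. Both of its miR-511 arrays lay above both controls, with a log2FC of 0.23 (standard error 0.12, unadjusted p = 0.133 from limma). MX1 and MX2 thus parted in experiment 2, at -0.55 and 0.13, although both were higher with miR-511 mimic in experiment 1, at 0.13 and 0.32.

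USP18 removes ISG15 from proteins and restrains the interferon receptor. It read 7.67 with miR-511 and 7.44 with control mimic in experiment 1, and 7.19 and 7.53 in experiment 2. OASL, an oligoadenylate synthetase relative that supports RNA sensing, read 7.79 and 7.58, then 7.26 and 7.53. RSAD2 (viperin), a radical enzyme that blocks viral replication, read 4.50 and 4.29, then 3.89 and 4.16. All 3 genes were highest on the miR-511 array of experiment 1 and lowest on that of experiment 2. CMPK2, which lies beside RSAD2 in the genome and makes nucleotides in mitochondria, did not share that course, at 9.22 and 9.34, then 9.35 and 9.54. It was lower with miR-511 mimic in both experiments, with a log2FC of -0.15 (standard error 0.12, unadjusted p = 0.273 from limma).

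IFI44L and IFI44, neighbouring cytoplasmic proteins of little known function, had the widest spread over the 4 arrays among the brightest tested probes. IFI44L (chromosome 1, 79107590 to 79107649) read 3.6 and 3.86 in experiment 1 and 2.04 and 4.28 in experiment 2, and was well above background with the control mimic only. Its log2FC of -1.25 (standard error 0.57, Benjamini-Hochberg adjusted p = 1.00 from limma) rests on signals near background. As a bound, its mean over both experiments was at least 1.52-fold lower with miR-511 mimic. Its log2FC was -0.26 in experiment 1 and -2.24 in experiment 2. IFI44 (79128479 to 79128538) read 4.84 and 4.80, then 3.44 and 4.59, and was not well above background on the miR-511 array of experiment 2 alone. In both genes that array was lowest, but neither was well above background on it, so the drop has no size.

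**Figure D2:**
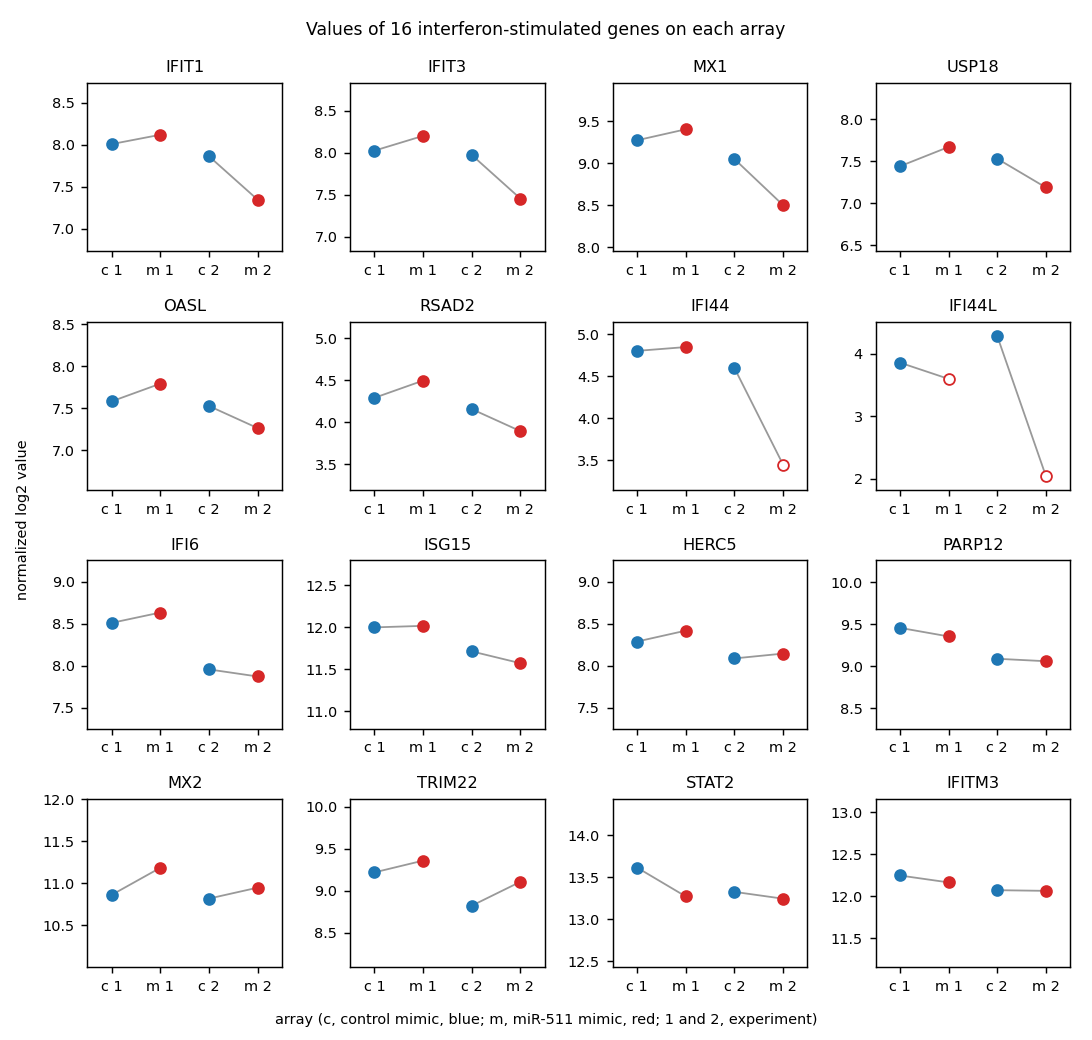
Normalized log2 values of 16 interferon-stimulated genes on each array, with control mimic in blue, miR-511 mimic in red and the arrays of 1 experiment joined by a line (open circles, not well above background). Panels differ in their vertical range. IFIT1, IFIT3 and MX1 drop to 7.35, 7.45 and 8.50 on the miR-511 array of experiment 2, while MX2 and TRIM22 are higher with miR-511 mimic in both experiments.

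Other genes kept the same side in both experiments without passing the test. TRIM22 and TRIM21 are ubiquitin ligases, the first restricting viral transcription and the second binding antibody inside cells. TRIM22 read 9.36 and 9.22, then 9.11 and 8.82, and TRIM21 read 8.09 and 7.97, then 8.10 and 7.83. IFI35, which binds NMI, read 9.66 and 9.47, then 9.43 and 9.25. Log2FC was 0.21, 0.20 and 0.19, and of these 3 genes the mimics did not overlap for TRIM21 only. Within experiments 1 and 2 log2FC was 0.14 and 0.28 for TRIM22, 0.12 and 0.27 for TRIM21, and 0.19 and 0.18 for IFI35. On the negative side stood STAT2, the signal transducer of the pathway, and UBE2L6, the enzyme that hands ISG15 to its ligases. STAT2 read 13.27 and 13.62, then 13.25 and 13.33, and UBE2L6 read 7.78 and 8.10, then 7.90 and 8.01. Both had a log2FC of -0.21, with standard errors of 0.13 and 0.10 (unadjusted p = 0.185 and 0.110 from limma), and most of it came from experiment 1. ISG20, an exonuclease of viral RNA, read 8.43 and 8.49, then 8.27 and 8.55, with a log2FC of -0.17. IFITM1, which keeps viruses from fusing with membranes, had a log2FC of -0.13 (standard error 0.23) between the mimics.

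Counted by overlap, both miR-511 arrays lay below both controls for 5 of 42 genes (BST2, IFI44L, ISG20, STAT2 and UBE2L6), a pattern held by 10.1% of all tested probes. They lay above both controls for 4 (MX2, PLSCR1, SP110 and TRIM21), held by 15.6% of all. Both shares were close to or under those of the array as a whole.

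The set differed more between the experiments than between the mimics. So did the array as a whole, with 13.6% of probes passing between the experiments and 2.2% between the mimics. In limma, 9 of 42 genes (21.4%) were lower in experiment 2 at an unadjusted p below 0.05 and 0 were higher. Over all tested probes 13.6% passed in either direction, 8.15% lower and 5.42% higher. No probe passed after Benjamini-Hochberg adjustment, the smallest adjusted p being 0.215. The median log2FC (experiment 2 minus experiment 1) of the 42 genes was -0.18, against -0.0093 over all probes, and 34 genes were lower. With the control mimic the median was -0.12 (30 genes lower) and with the miR-511 mimic -0.23 (34 lower). The sign was negative with both mimics for 28 genes and positive with both for 6. Both arrays of experiment 2 lay below both of experiment 1 for 26 of 42 genes (61.9%) and for 26.4% of all probes. Each side of this comparison is 1 experiment, so its p-values do not measure how repeated experiments vary. The labels do not say what else set the experiments apart.

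**Figure D3:**
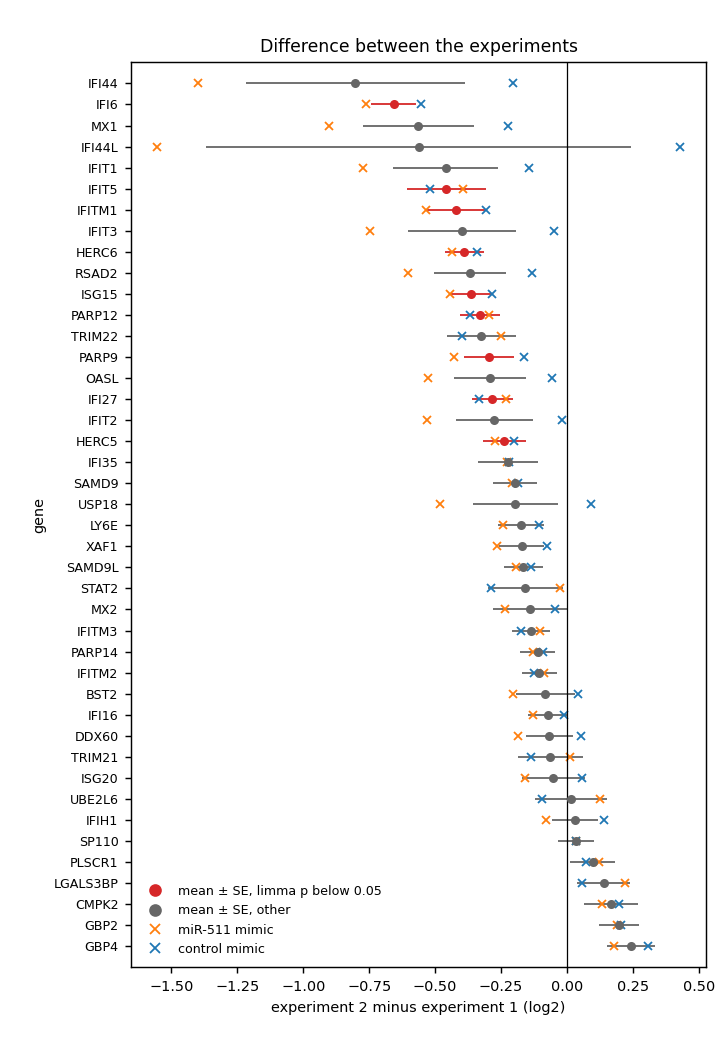
Log2FC between experiment 2 and experiment 1 for the 42 tested genes, with the mean and standard error from limma (red where the unadjusted p is below 0.05) and crosses for each mimic. IFI6 has the lowest value among the red points at -0.66, and the crosses of the miR-511 mimic lie far left of those of the control mimic for IFI44, IFI44L, MX1, IFIT1 and IFIT3.

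IFI6, a small mitochondrial and endoplasmic reticulum protein that counters apoptosis and flavivirus replication, differed most clearly. Its probe (chromosome 1, 27992837 to 27992896) read 8.63 with miR-511 and 8.51 with control mimic in experiment 1, and 7.87 and 7.96 in experiment 2. The 2 experiments were separated by 0.55 with the gap between mimics at 0.12 or less. Log2FC was -0.66 (standard error 0.084, unadjusted p = 0.00154, Benjamini-Hochberg adjusted p = 0.218 from limma). IFI27, a related small membrane protein, read 5.03 and 5.14, then 4.79 and 4.81, with a log2FC of -0.28 (standard error 0.077, unadjusted p = 0.0219 from limma).

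Genes of ISG15 conjugation gave 3 of the 9. ISG15 itself (chromosome 1, 949567 to 949626) read 12.02 and 12.00 in experiment 1 and 11.57 and 11.71 in experiment 2, with a log2FC of -0.36 (standard error 0.083, unadjusted p = 0.0119, Benjamini-Hochberg adjusted p = 0.277 from limma). HERC5, the main ISG15 ligase in human cells, read 8.42 and 8.29, then 8.14 and 8.09, with a log2FC of -0.24 (standard error 0.083, unadjusted p = 0.0463 from limma). HERC6, a relative of HERC5 in the same cluster on chromosome 4, read 4.46 and 4.46, then 4.02 and 4.12, with a log2FC of -0.39 (standard error 0.075, unadjusted p = 0.00688 from limma). In all 3 both arrays of experiment 2 lay below both of experiment 1. A second HERC6 probe, dimmer and below the background limit on 1 array, had the opposite sign, a log2FC of 0.97 (standard error 0.49, unadjusted p = 0.119 from limma), so HERC6 is uncertain. USP18 had -0.20 and UBE2L6 0.017, and neither passed.

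Both PARP9, which pairs with a ubiquitin ligase in the interferon response, and PARP12, an antiviral mono-ADP-ribosyltransferase, passed. PARP12 (chromosome 7, 139723946 to 139724005) read 9.36 and 9.46, then 9.06 and 9.09, with a log2FC of -0.33 (standard error 0.076, unadjusted p = 0.0122 from limma). PARP9 read 8.42 and 8.26, then 7.99 and 8.10, with -0.29 (standard error 0.095, unadjusted p = 0.0362 from limma). PARP14 had a smaller log2FC of -0.11 (unadjusted p = 0.170 from limma). In all 3 the miR-511 array of experiment 2 was lowest, with the control array of experiment 2 next. The gap between them was 0.029 for PARP12, 0.020 for PARP14 and 0.11 for PARP9.

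IFITM1 (chromosome 11, 315209 to 315268) read 10.33 and 10.35 in experiment 1 and 9.79 and 10.04 in experiment 2, with a log2FC of -0.42 (standard error 0.11, unadjusted p = 0.0190 from limma). A second IFITM1 probe had -0.21 (standard error 0.22) and did not pass. IFITM2 and IFITM3, which lie beside it and restrict entry from endosomes, had -0.11 and -0.14. The IFITM genes are near-identical in parts, and cross-hybridization between them was not tested. IFIT5 had a log2FC of -0.46 (standard error 0.15, unadjusted p = 0.0385 from limma) between the experiments, with both of its arrays of experiment 2 below both of experiment 1. MX1 had -0.56 and IFIT1 -0.46, larger than all of the 9 but IFI6, and did not pass (standard errors 0.21 and 0.20, unadjusted p = 0.0566 and 0.0834 from limma). Their arrays of experiment 2 differed by more than 0.5 between mimics. Of second probes, those of IFIT2 (-0.27) and XAF1 (-0.36) passed where the brightest probe did not.

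Members with no call between the experiments included antiviral proteins of several kinds. BST2 (tetherin), which holds budding viruses at the cell surface, had a log2FC of -0.082, and the helicase DDX60, which assists RNA sensing, -0.067. IFI16, a sensor of nuclear DNA, had -0.071, and XAF1, which promotes apoptosis, -0.17. SAMD9 and SAMD9L, which restrict poxviruses, had -0.20 and -0.17. LY6E, a lipid-anchored surface protein that hinders coronavirus fusion, had -0.17. BST2 had a second probe whose course resembled that of USP18, at 11.46 with miR-511 and 11.11 with control mimic in experiment 1 and 10.73 and 11.46 in experiment 2. Its brighter probe differed less, at 12.10 and 12.10, then 11.89 and 12.14, and the miR-511 array of experiment 2 was lowest with both probes.

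The opposite sign was held by few. GBP4 and GBP2, guanylate-binding GTPases more strongly tied to interferon gamma, read 6.51 and 6.55, then 6.69 and 6.86, and 6.12 and 6.04, then 6.31 and 6.25. Log2FC was 0.24 and 0.20 (standard errors 0.090 and 0.075, unadjusted p = 0.0556 and 0.0588 from limma). CMPK2 had 0.17, LGALS3BP, a secreted galectin ligand that read 8.54 and 8.75, then 8.76 and 8.81, had 0.14, and PLSCR1, a phospholipid scramblase that read 10.13 and 10.05, then 10.26 and 10.12, had 0.097. For GBP2, GBP4, CMPK2 and LGALS3BP both arrays of experiment 2 lay above both of experiment 1. None passed, so a difference from 0 was not shown for them.

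By role, median log2FC between the experiments was -0.29 for the 7 RNA binders, -0.29 for the 3 PARP genes, -0.24 for the 5 ISG15 conjugation genes and -0.22 for the 9 small IFI and other proteins. It was -0.12 for the 8 membrane and entry genes, -0.11 for the 6 nuclear and TRIM genes and 0.029 for the 4 tested GTPases. Nuclear and GTPase members gave 0 calls in limma at the unadjusted threshold at their brightest probes. Over all probes 8.15% were called lower and 5.42% higher, so 0 calls among 6 and 4 tested genes says little. A second probe of XAF1, a nuclear member, did pass. SP110, a nuclear body protein, stayed within 0.074 over all 4 arrays, and IFIH1 (MDA5), a sensor of long double-stranded RNA, within 0.14. Not every member was lower.

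Calls between experiments depended on single arrays. With 1 left out, the lone array of its experiment is assumed to vary like those of the other. Without miR-511 mimic replicate 1, 5 genes passed in limma (HERC6, IFI27, IFI6, PARP12 and STAT2), beside 9.65% of all probes. Without control mimic replicate 1 there were 6 (HERC5, HERC6, IFI6, ISG15, PARP12 and PARP9), beside 14.2% of all. Leaving out control mimic replicate 2 gave 10, with IFI44, IFI44L, IFIT1, IFIT3, MX1 and RSAD2 joining HERC6, IFI6, IFITM1 and ISG15, beside 8.23% of all. Leaving out miR-511 mimic replicate 2 gave 6, beside 10.2% of all, of which 4 were lower (HERC6, IFI6, IFIT5 and TRIM22) and 2 higher (GBP4 at 0.33 and IFI44L). IFI44 and IFI44L rest on values near background in these fits. IFI6 and HERC6 passed with each of the 4 arrays left out, at -0.60 to -0.72 and -0.34 to -0.44.

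A single array stood out within the set. The miR-511 array of experiment 2 held the lowest of the 4 values for 25 of 42 genes (59.5%), whereas it did so for 24.8% of all tested probes. The control array of experiment 2 was lowest for 9 genes, and each array of experiment 1 for 4. Conversely 22 genes were highest on the miR-511 array of experiment 1, where 33.4% of all probes were. By role, that array of experiment 2 was lowest for 5 of 7 RNA binders, 3 of 3 PARP genes, 3 of 5 ISG15 conjugation genes, 5 of 8 membrane genes, 5 of 9 small IFI and other proteins, 3 of 6 nuclear and TRIM genes and 1 of 4 GTPases. These counts take in small gaps, as in the PARP genes, where the next array lay 0.020 to 0.11 higher. For IFIT1, IFIT3, MX1 and IFI44 the miR-511 array of experiment 2 lay more than 0.3 below the other 3 arrays. The other 3 stayed within 0.5 of each other. IFI44 was not well above background on that lowest array, so the size of its drop is not known. Compared with the miR-511 array of experiment 1 the signal was 1.87-fold lower for MX1, 1.71-fold for IFIT1, 1.68-fold for IFIT3, 1.69-fold for IFI6 and 1.52-fold for RSAD2, each 1 array against 1 with no test. The summed signal of the monocytic and myeloid markers was lowest on the same array too (16.24 against 16.37 to 16.42). This sum is led by the brightest marker, CEBPA, at 15.29 on that array. CD68, CEBPA and HOXA9 were lowest there, whereas CD14, CD33, CSF1R, ITGAM, MPO, PTPRC and SPI1 were lowest on other arrays. Any part of these markers in the result was not tested. Its number of probes well above background, 22949, was between those of the other arrays.

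**Figure D4:**
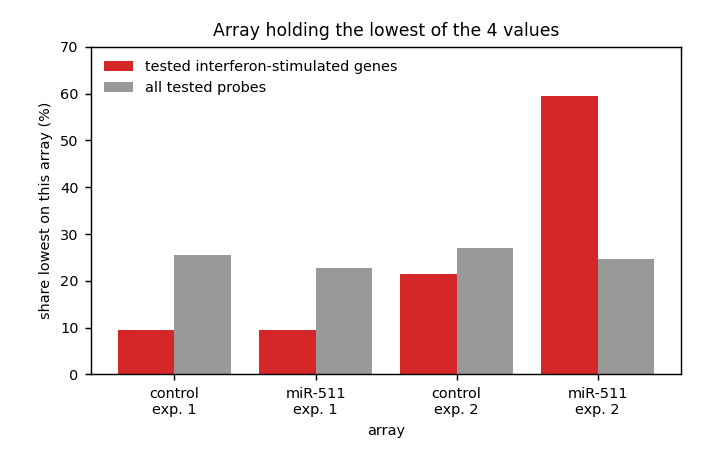
Share of genes whose lowest normalized log2 value fell on each array, for the 42 tested interferon-stimulated genes (red) and all 22638 tested probes (grey), in percent. The miR-511 array of experiment 2 was lowest for 59.5% of the set and 24.8% of all probes.

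**Figure D5:**
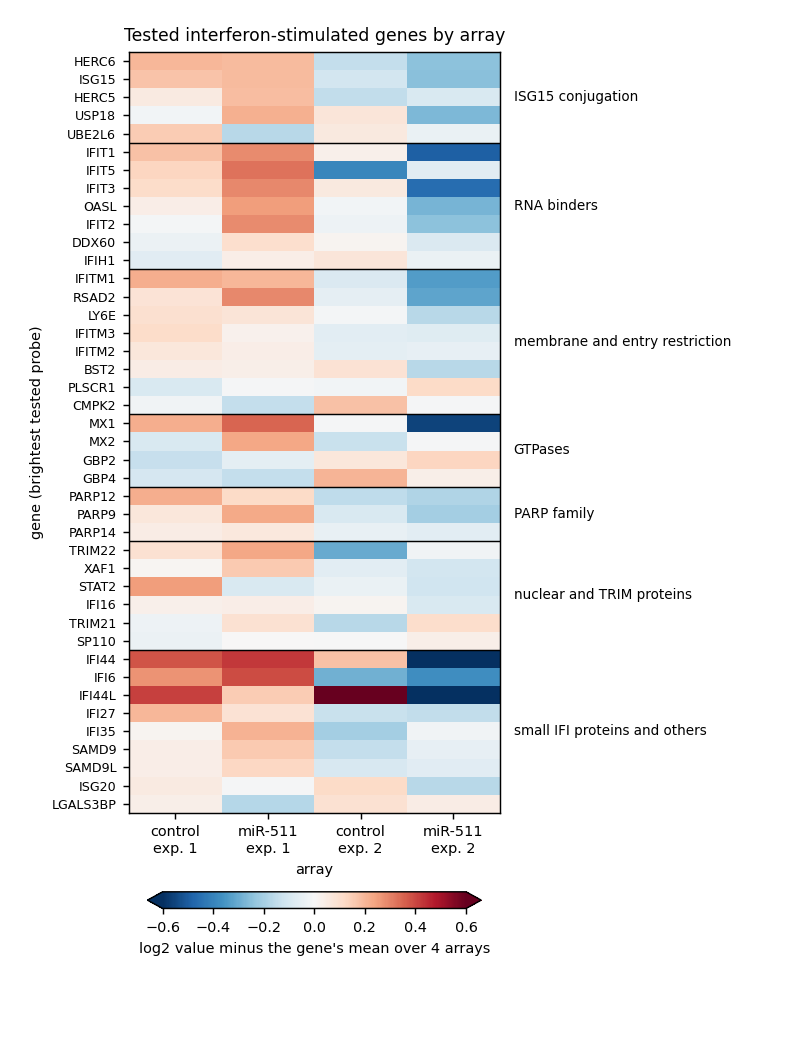
Normalized log2 value minus the mean of the gene over the 4 arrays, for each tested gene (rows, grouped by role) and array (columns), with red above and blue below the mean and the scale ending at -0.6 and 0.6. Most rows are blue on the miR-511 array of experiment 2, with MX1, IFIT1 and IFIT3 darkest outside IFI44 and IFI44L, while GBP2, GBP4, PLSCR1 and TRIM21 are not.

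Members with and without the string GAAANNGAAA in a promoter window can be set side by side. Absence of this exact string does not show absence of the response element. Of tested members with a promoter window, the 25 that held GAAANNGAAA had a median log2FC between the experiments of -0.28 with 21 lower, and the 9 without had -0.16 with 6 lower. The array of experiment 2 with miR-511 mimic was lowest for 17 of the 25 and 4 of the 9. Of genes called between experiments, 8 held it, and HERC6 did not. In experiment 2 the median log2FC between mimics was -0.11 with and -0.081 without the string. The 2 subsets are small and share all 4 arrays, so these values describe them only.

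Genes elsewhere in the pathway, from a list of 59 on the array, showed where the set stood. Ligands were barely measured, as 12 of 15 interferon genes, IFNB1 and IFNG among them, were well above background on no array and only IL28A was tested (log2FC 0.27 between mimics, unadjusted p = 0.0683 from limma). Receptors, kinases and transcription factors were measured, except IL28RA. Of the 41 tested genes 0 passed between the mimics in limma at an unadjusted p below 0.05, and 12 were lower and 0 higher between the experiments. The shares over all probes were 2.2% between the mimics and 8.15% lower and 5.42% higher between the experiments. IRF9, the DNA-binding partner of STAT2, had -0.58 (standard error 0.092, unadjusted p = 0.00333, Benjamini-Hochberg adjusted p = 0.226 from limma), with values of 9.0 and 8.82, then 8.33 and 8.33. IRF7, which amplifies interferon production, had -0.39 and the receptor chain IFNAR1 -0.37, whereas the transcription factor IRF1 had 0.022 and did not pass. Among induced genes OAS1 and OAS2, which make the activator of RNase L, had -0.71 and -0.35, and TNFSF10, a death ligand, -0.46. The other OAS2 probes had -0.44 and -0.29 and did not pass. Of the 22 tested induced genes 14 were lower in experiment 2, with a median of -0.070. OAS3 (0.13), PSMB8 (0.39) and SP100 (0.41) were among those higher without passing. The other SP100 probes had 0.032 and -0.038, so its brightest probe is not borne out by them. CXCL10, a chemokine of the response, was well above background with the control mimic only. It read 4.57 and 3.62 with control mimic and 3.23 and 1.57 with miR-511 mimic. Its mean over both experiments was at least 1.63-fold lower with miR-511 mimic and did not pass (unadjusted p = 0.0624 from limma). A second CXCL10 probe, also above background with the control mimic only, read 3.73 and 4.00 against 3.64 and 1.15. Its mean over both experiments was at least 1.30-fold lower (unadjusted p = 0.165 from limma). In experiment 1 its log2FC was -0.090, so that bound rests on experiment 2.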

How the data were processed

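RNA of THP1 cells from 4 cultures was hybridized by the authors to 1-colour Agilent Human Whole Genome Microarrays. The authors deposited the processed intensity of each spot, background-subtracted by Agilent Feature Extraction (version 10.5.1.1 in the submitters' processing notes, 10.7.3.1 in the file headers) and left without normalization across arrays. A second deposited table, of log2 values, ranks the spots of each array identically (lowest Spearman correlation 1), has a median of 6.54 in each column and served as an alternative. Low spots carry a surrogate intensity. Coordinates are those of hg19 in the files, and the position of a probe in a transcript was not analysed here. By accession, 49 of the 51 probes matched RefSeq, all with the same symbol.

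Here, log2 was taken of the intensity of 43118 spots, 232 to 301 marked spots per array were left out, arrays were quantile normalized and spots of a probe averaged (R 4.3.3, limma 3.58.1). For probes with 10 copies, more than 50% of the spots had to be well above background. lmFit and eBayes without a block (the methods name none) compared mimics (4.14 total degrees of freedom) and experiments, with two-sided p-values at 0.05. The brightest tested probe stood for a gene. The members and lists were chosen with earlier results of these data known. Values on every array are given for members called in either comparison and for the 5 largest differences in each direction among those above background on all 4 arrays with 1 direction in both experiments or with both mimics. Others, such as IFIT3, USP18, OASL, RSAD2, IFI44 and IFI44L, were chosen for display after their values were seen. The scripts were tested on simulated data.

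The experiment number in the labels pairs the arrays, and deviations of arrays with the same number correlated at 0.271 across probes. Alternatives were the deposited table, normexp (offset 50), scaling to the 75th percentile, keeping dim probes or only those above background on all arrays, keeping marked spots, a plain t-test of each averaged probe (the study names one over identical replicate probes, which is another step), a trend in eBayes, the replicate block, any probe of a gene, and each array left out. Motifs were searched in RefSeq promoters of GRCh38.p14. The precision is limited by the number of arrays.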

Additional observations from a re-analysis of the deposited data

Results flagged for a closer look

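For 8 of the 42 tested genes (19.0%, against 9.14% of all tested probes) the difference between miR-511 and control mimic was positive in experiment 1 and negative in experiment 2, by more than the typical size of a log2FC in each experiment (0.11 and 0.10). The reverse course was taken by 0 of the 42 and by 5.53% of all probes. Each experiment has 1 array per mimic, so the difference between the experiments was not tested. Taken as log2FC of experiment 2 minus that of experiment 1, it was -0.70 for IFIT3, -0.68 for MX1, -0.57 for USP18, -0.51 for IFIT2, -0.47 for OASL, -0.47 for RSAD2, -0.27 for PARP9 and -0.24 for DDX60. These are values of the brightest probe, and a second IFIT2 probe was higher with miR-511 mimic in both experiments (0.044 and 0.11).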

How the results depend on the processing

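Between the mimics, 0 of the tested interferon-stimulated genes passed the unadjusted threshold under every alternative that kept all 4 arrays, in limma and in the plain t-test. With the experiment number as a block (replicate block) it was 0 as well, while the count over all probes was 894 in place of 498. That count was 265 after normexp, 285 with an intensity trend, 1029 without a filter and 516 to 1379 with arrays left out. Leaving out each array gave 0 to 5 members and medians of -0.13 to 0.14, and the median changed sign without miR-511 mimic replicate 2 (0.14) or control mimic replicate 1 (0.030). With arrays left out, IFIT5 ranged from -5.43e-05 (without control mimic replicate 2) to 0.52, and IFITM1 from -0.40 to 0.13, being also positive (0.021) without control mimic replicate 1. The cause was not tested.

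Between the experiments, 7 to 11 genes passed with all 4 arrays (8 with the mimic as a block, which lost HERC5 and PARP9 and added TRIM22) and 5 to 10 with arrays left out. The median stayed between -0.25 and -0.13. IFI6 passed in 13 of 13 settings, HERC6, ISG15 and PARP12 in 11, IFI27 and IFITM1 in 8, HERC5 and IFIT5 in 7 and PARP9 in 6. On the deposited log2 values there were 10, of which 9 were lower. After adjustment over all probes normexp gave 3 probes and the plain t-test 1. The miR-511 array of experiment 2 was lowest for 23 to 26 genes with all arrays kept. With 1 slide for all arrays there was no slide block to run. Genes near background, such as IFI44L, have only bounds.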
